A study of Mus musculus with 8 samples.

Results

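Liver handles glucose through genes that break it down, make it anew, store it as glycogen and answer to insulin and glucagon. These data hold 41 such genes out of 35975 genes with a transcript in the deposited counts, and all 41 were among the 12883 genes tested. They were listed by name and by role, and each gene's value is the sum of its transcripts in each library. By role, 3 genes serve the entry of glucose and fructose, 13 glycolysis, 3 pyruvate dehydrogenase, 6 gluconeogenesis, 8 glycogen and 8 the insulin and glucagon signal.

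The livers came from C57BL/6 mice (C57BL/6J in the study's methods) whose portal vein carried a catheter from an osmotic pump placed under the skin. For 2 weeks, 4 mice received normal saline (NS) and 4 mice received 4-hydroxyphenylacetic acid (4-HPAA), a product of gut bacteria that the liver clears, dissolved in normal saline. Both groups therefore had the surgery, the catheter and the pump, and the pump delivered 0.25 µL per hour, with 4-HPAA at 55 mM. Per the study's methods, mice were 8 to 10 weeks old, both sexes were used and chow was given freely; the sex of these 8 mice, their last meal and the hour of tissue collection were not given in the sources used here. Estimated counts per library totaled between 29559978 and 30673398. Summed hepatocyte markers lay between 115409 and 142858 CPM (counts scaled to the size of the library), and all 10 of them were measured in every liver.

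In a fed animal, insulin binds its receptor, the signal passes through the Irs adaptors to Akt, and the FoxO factors leave the nucleus, which lowers transcription of genes such as Pck1, G6pc and Igfbp1. Fructose, glucose and insulin raise genes such as Pklr and Khk. In a fasted animal glucagon acts through its receptor and cyclic AMP, Ppargc1a is induced and new glucose is made. In whole tissue, fewer cells of a type and less RNA per cell cannot be told apart.

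None of the 41 genes passed the test between NS and 4-HPAA. The count of genes with an adjusted p under 0.05 was 0 of 41 with edgeR's quasi-likelihood test, and likewise 0 with DESeq2 and 0 with limma-voom, where edgeR called 0% and DESeq2 0.0155% of all genes tested. The adjusted p of each of the 41 was 1.00. Before adjustment, 1 of the 41, the kinase gene Pfkfb1, had p under 0.05, where the share over all genes tested was 1.75%. Groups failed to overlap in 1 gene, again Pfkfb1, beside 1.20% of all genes tested. A single gene of 41 is 2.44%, so neither count stands clear of its background. Of the 41 log2 fold changes (4-HPAA minus NS), 24 were above 0 and 17 below. Their median was 0.0020, beside 0.00071 for all genes tested, and they ran from -0.44 to 0.20. For 31 of the 41 the standard error was larger than the fold change itself. A missed threshold does not show that levels were alike.

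**Figure D1:**
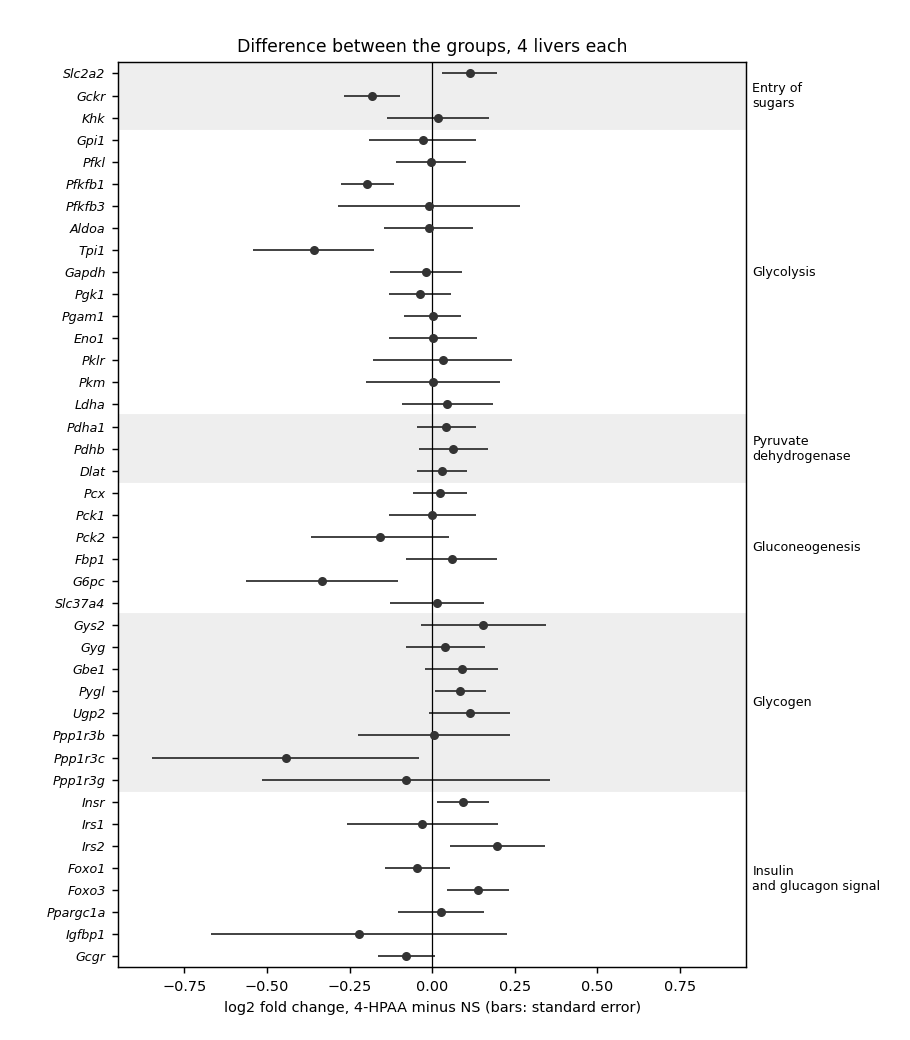
Points give the log2 fold change (horizontal axis, 4-HPAA minus NS) of each of the 41 genes, ordered by role from top to bottom, and bars give its standard error (4 livers a group). Every point lies between -0.44 and 0.20, and the bars of 31 genes cross 0.

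Levels spanned more than 3 orders of the decimal scale when set per length of transcript. Pck1, which encodes the cytosolic enzyme that commits oxaloacetate to glucose synthesis, was the most abundant of the 41 at 2912 TPM (a level that also allows for transcript length, mean of 8 livers). It was followed by the glycolytic dehydrogenase Gapdh at 1025 TPM and by Fbp1, the bisphosphatase that opposes phosphofructokinase, at 928 TPM. Ldha, which interconverts pyruvate and lactate, stood at 594 TPM and the ketohexokinase gene Khk at 380 TPM. The lowest were the insulin adaptor Irs1 at 2.18 TPM, mitochondrial Pck2 at 4.24 TPM, the glycogen primer Gyg at 4.50 TPM and Irs2 at 4.73 TPM. Liver forms stood above their counterparts from other tissues: the liver pyruvate kinase gene Pklr was at 173 TPM and Pkm, the form of most other cells, at 7.04 TPM.

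**Figure D2:**
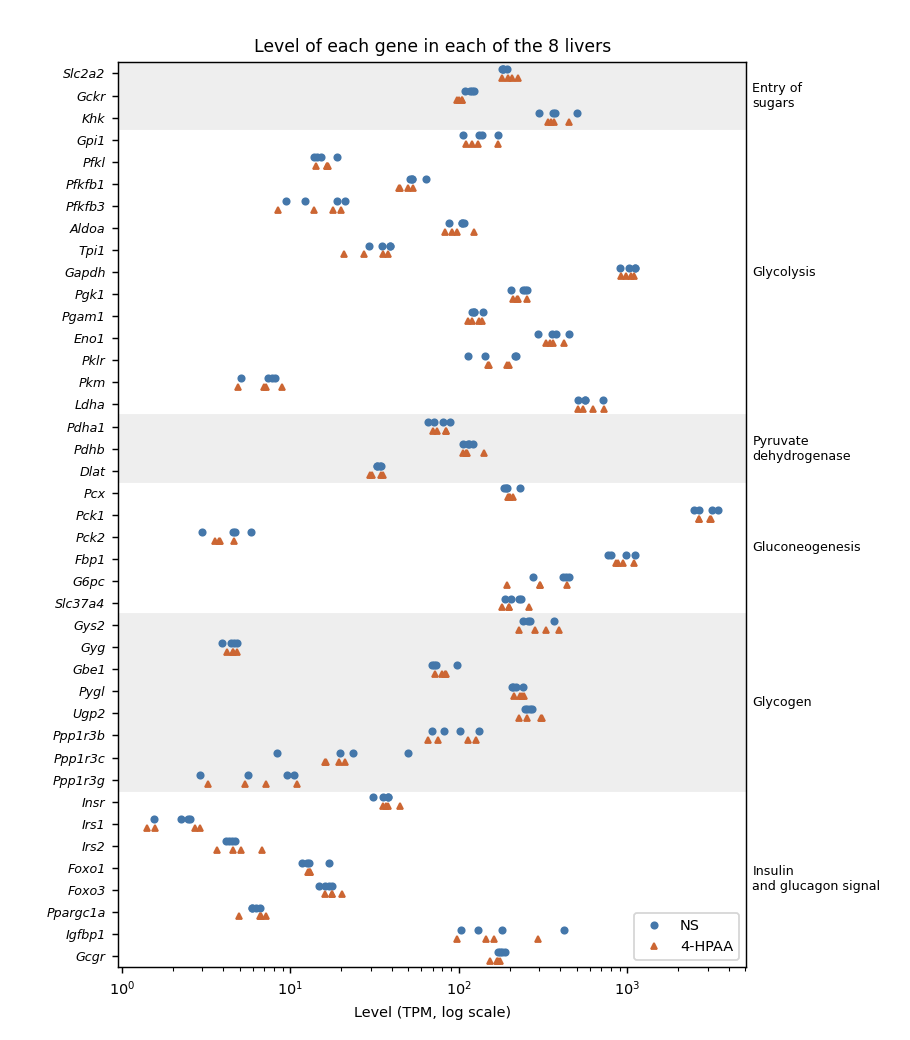
Each row is a gene, ordered by role, and each symbol the level in 1 liver in TPM on a log scale (circles, NS; triangles, 4-HPAA). Pck1 lies highest at a mean of 2912 TPM and Irs1 lowest at 2.18 TPM, and circles and triangles share their range in most rows.

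Genes for the entry of sugar into the pathway did not pass the test. Slc2a2 encodes the low-affinity glucose carrier of the hepatocyte membrane and averaged 384 ± 7.87 CPM with NS and 416 ± 36.4 CPM with 4-HPAA (SD, n = 4 for each mean here and in the paragraphs that follow). Gckr (ENSMUSG00000059434, chromosome 5, 31297443 to 31327314) encodes a regulatory protein of hexose phosphorylation. Its values were 158, 188, 166 and 178 CPM in NS replicates 1 to 4 and 169, 144, 147 and 148 CPM in 4-HPAA replicates 1 to 4. Every 4-HPAA liver except replicate 1 lay below the lowest NS liver, for a log2 fold change of -0.18 (standard error 0.08) and an unadjusted p of 0.057 in edgeR, the second smallest of the 41. Without 4-HPAA replicate 1 the 2 groups of Gckr did not overlap. A smaller group separates more easily by chance, and no share over all genes was taken for that set.

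Khk (ENSMUSG00000029162, chromosome 5, 30921431 to 30931248) phosphorylates fructose and is induced by sugar feeding. It measured 401, 307, 250 and 301 CPM in NS replicates 1 to 4 and 321, 276, 291 and 387 CPM in 4-HPAA replicates 1 to 4. The highest livers were NS replicate 1 and 4-HPAA replicate 4, the lowest was NS replicate 3, and the groups overlapped throughout, with a log2 fold change of 0.02 (standard error 0.15).

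Glycolysis held the only gene of the 41 whose groups did not overlap. Pfkfb1 (ENSMUSG00000025271, chromosome X, 150588229 to 150643878) encodes the liver form of the enzyme that makes and removes fructose 2,6-bisphosphate, the molecule that switches between glycolysis and gluconeogenesis. It was at 61.1, 51.7, 50.2 and 51.6 CPM in NS replicates 1 to 4 and 45.4, 46.8, 49.8 and 45.3 CPM in 4-HPAA replicates 1 to 4. All 4 livers with 4-HPAA lay below all 4 with NS, yet NS replicate 3 and 4-HPAA replicate 3 were less than 1 CPM apart. The log2 fold change of -0.20 (standard error 0.08) had an unadjusted p of 0.0358 and an adjusted p of 1.00 in edgeR. With libraries scaled by total counts only, the Pfkfb1 groups overlapped. Its leading transcript Pfkfb1-202, with 77.3% of the gene's counts, ran from 1068 to 1556 counts with NS and from 952 to 1146 with 4-HPAA, and those ranges overlapped too.

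Tpi1 (ENSMUSG00000023456, chromosome 6, 124810586 to 124814296) encodes triosephosphate isomerase, which converts between the triose phosphates. Its values were 23.9, 22.6, 15.7 and 21.2 CPM in NS replicates 1 to 4 and 11.9, 14.2, 18.1 and 20.8 CPM in 4-HPAA replicates 1 to 4. The lowest NS liver, replicate 3, lay within the range of the 4-HPAA livers, and the log2 fold change of -0.36 (standard error 0.18) had an unadjusted p of 0.0786 in edgeR. Most of the difference sat in a transcript that did not hold the most counts. Tpi1-205, with 20.4% of the counts of the gene, had 279 and 289 counts in NS replicates 1 and 2, 69 and 68 in NS replicates 3 and 4, and 77, 34, 28 and 56 with 4-HPAA. Tpi1-203, with 67.3% of the counts, had 382, 330, 348 and 456 counts with NS and 224, 331, 445 and 457 with 4-HPAA. Its log2 fold change was -0.03 (standard error 0.22). Tpi1-203 leads by estimated counts only and is the shorter, at 802 bases beside 1607 bases for Tpi1-205.

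The other 11 glycolytic genes had fold changes between -0.04 and 0.04 on the log2 scale. In the order of the pathway, the isomerase gene Gpi1 averaged 165 ± 27.5 CPM with NS and 162 ± 34.6 CPM with 4-HPAA. Pfkl, the liver phosphofructokinase, averaged 32.3 ± 4.02 CPM with NS and 32.1 ± 3.21 CPM with 4-HPAA. These enzymes carry the flux to the triose phosphates, together with Aldoa, the aldolase of muscle and most tissues, at 84.9 ± 7.97 CPM with NS and 84.3 ± 16.8 CPM with 4-HPAA. Gapdh averaged 897 ± 84.8 CPM with NS and 885 ± 97.4 CPM with 4-HPAA. Pgk1, which makes the first ATP of the pathway, averaged 262 ± 20.0 CPM with NS and 256 ± 25.0 CPM with 4-HPAA. The next steps, the mutase and the enolase, were as even, with Pgam1 at 136 ± 11.3 CPM with NS and 136 ± 10.6 CPM with 4-HPAA. Eno1 averaged 444 ± 68.8 CPM with NS and 445 ± 60.0 CPM with 4-HPAA. Ldha averaged 563 ± 75.5 CPM with NS and 581 ± 99.2 CPM with 4-HPAA. Several of these genes have processed pseudogenes nearly identical to them, among them Gapdh, Eno1, Pgam1, Pgk1, Ldha, Aldoa and Tpi1, so the division of reads by kallisto makes their levels uncertain.

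Pfkfb3, the form of the bifunctional enzyme that favors glycolysis, varied among livers without regard to group. It averaged 36.8 ± 12.1 CPM with NS and 36.6 ± 12.1 CPM with 4-HPAA, and its highest liver held 2.20 times the level of its lowest. Pkm averaged 9.61 ± 2.13 CPM with NS and 9.62 ± 2.21 CPM with 4-HPAA and was lowest in NS replicate 4 (6.49 CPM) and 4-HPAA replicate 4 (6.89 CPM). The summed Kupffer cell and leukocyte markers were also lowest in those livers, at 90.5 and 84.2 CPM beside 109 to 284 CPM in the other 6. That list has 10 genes, 9 of them tested, and none was at 0 in every liver. The part of these cells in the level of Pkm was not tested.

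Pyruvate dehydrogenase passes pyruvate into the citric acid cycle, and 3 of its subunit genes were listed. Pdha1, the catalytic alpha subunit, averaged 131 ± 13.8 CPM with NS and 135 ± 7.26 CPM with 4-HPAA. Pdhb, its beta partner, averaged 104 ± 4.66 CPM with NS and 109 ± 16.8 CPM with 4-HPAA. Dlat, the acetyl-transferring core, averaged 47.2 ± 2.93 CPM with NS and 48.2 ± 2.94 CPM with 4-HPAA and differed by no more than 1.15-fold over the 8 livers. Their log2 fold changes lay between 0.03 and 0.06, all 3 above 0 and none called.

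Gluconeogenesis runs from pyruvate back to free glucose. Pcx, the pyruvate carboxylase that opens it, averaged 483 ± 37.4 CPM with NS and 491 ± 18.9 CPM with 4-HPAA, with a log2 fold change of 0.02 (standard error 0.08). Pck1 (ENSMUSG00000027513, chromosome 2, 173153048 to 173159273), the classic fasting gene of liver, was at 5251, 4009, 4189 and 5135 CPM in NS replicates 1 to 4 and 5247, 4783, 4162 and 4402 CPM in 4-HPAA replicates 1 to 4. NS replicates 1 and 4 and 4-HPAA replicate 1 were highest and NS replicate 2 and 4-HPAA replicate 3 lowest. The groups overlapped fully, and the log2 fold change of 0.00071 (standard error 0.13) was among the smallest of the 41. Pck2 averaged 6.32 ± 1.67 CPM with NS and 5.67 ± 0.934 CPM with 4-HPAA.

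Past phosphoenolpyruvate, Fbp1 averaged 823 ± 144 CPM with NS and 857 ± 107 CPM with 4-HPAA. G6pc (ENSMUSG00000078650, chromosome 11, 101367561 to 101377903) encodes the catalytic subunit of glucose-6-phosphatase, which releases free glucose from the liver. Its values were 643, 626, 638 and 411 CPM in NS replicates 1 to 4 and 299, 438, 438 and 664 CPM in 4-HPAA replicates 1 to 4. In NS, 3 livers stood within 18 CPM of each other and replicate 4 lay far below them, while among 4-HPAA livers replicate 1 was lowest and replicate 4 was the highest of all 8. G6pc had a log2 fold change of -0.33 (standard error 0.23) and an unadjusted p of 0.176 in edgeR. Slc37a4, the carrier that brings glucose 6-phosphate to that enzyme inside the endoplasmic reticulum, averaged 250 ± 26.0 CPM with NS and 253 ± 53.0 CPM with 4-HPAA. Slc37a4 and G6pc were both highest in 4-HPAA replicate 4, at 329.7 and 664 CPM, while Slc37a4 was lowest in 4-HPAA replicate 3 and G6pc in 4-HPAA replicate 1.

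Glycogen genes comprised enzymes and regulators. Among the enzymes, Ugp2, which makes UDP-glucose, averaged 370 ± 25.0 CPM with NS and 400 ± 68.0 CPM with 4-HPAA. The primer gene Gyg averaged 4.59 ± 0.524 CPM with NS and 4.72 ± 0.176 CPM with 4-HPAA, and the liver synthase gene Gys2 averaged 430 ± 86.5 CPM with NS and 478 ± 117 CPM with 4-HPAA. Building and breaking of the chain fall to the next pair. The branching enzyme gene Gbe1 averaged 128 ± 19.6 CPM with NS and 136 ± 9.59 CPM with 4-HPAA. Pygl, the liver phosphorylase that frees glucose from the chain, averaged 374 ± 17.3 CPM with NS and 396 ± 23.2 CPM with 4-HPAA and kept within 1.22-fold over the 8 livers. The 5 enzymes had log2 fold changes from 0.04 to 0.15, each above 0, and none was called.

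The regulators carry protein phosphatase 1 to glycogen, where it turns the synthase on. Ppp1r3b (ENSMUSG00000046794, chromosome 8, 35375739 to 35388139), the main such subunit of liver and a fed-type gene, was at 326, 182, 260 and 215 CPM in NS replicates 1 to 4 and 179, 189, 317 and 302 CPM in 4-HPAA replicates 1 to 4. NS replicate 1 and 4-HPAA replicates 3 and 4 were above 300 CPM and the lowest 3 livers under 190 CPM, with both kinds in each group. Its log2 fold change of 0.0049 (standard error 0.23) turned below 0 with limma-voom, where it was -0.01, and in other alternatives. Ppp1r3c averaged 41.7 ± 27.8 CPM with NS and 30.7 ± 4.87 CPM with 4-HPAA, from 14.1 CPM in NS replicate 4 to 80.2 CPM in NS replicate 1. That is a 5.71-fold range, the widest of the 41, and it lay within the saline group. Without NS replicate 1 the log2 fold change of Ppp1r3c was 0.09 instead of -0.44. Ppp1r3g, a further subunit that was in neither the fed-type nor the fasted-type list, averaged 10.4 ± 5.15 CPM with NS and 9.84 ± 5.08 CPM with 4-HPAA. It was above 13 CPM in NS replicates 1 and 4 and 4-HPAA replicate 4 and under 5 CPM in replicate 3 of either group.

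Insulin and glucagon act through the last group of genes. The insulin receptor gene Insr averaged 184 ± 7.94 CPM with NS and 196 ± 14.8 CPM with 4-HPAA, and the glucagon receptor gene Gcgr averaged 213 ± 14.1 CPM with NS and 202 ± 16.4 CPM with 4-HPAA. Irs1 averaged 12.3 ± 2.30 CPM with NS and 12.0 ± 3.90 CPM with 4-HPAA. Receptors were thus steady, with less than 1.3-fold between the highest and lowest liver, while the adaptor Irs1 spanned 1.92-fold. Foxo1, the factor that insulin excludes from the nucleus, averaged 71.3 ± 10.1 CPM with NS and 69.1 ± 2.48 CPM with 4-HPAA. Foxo3 (ENSMUSG00000048756, chromosome 10, 42181841 to 42276755), its relative, was at 64.6, 58.4, 66.5 and 65.3 CPM in NS replicates 1 to 4 and 82.6, 67.7, 64.8 and 65.4 CPM in 4-HPAA replicates 1 to 4. 4-HPAA replicate 1 stood above all other livers, the remaining 3 were within or next to the NS range, and the log2 fold change of 0.14 (standard error 0.09) had an unadjusted p of 0.166 in edgeR.

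Of the fasted-type genes of this group, Ppargc1a (ENSMUSG00000029167, chromosome 5, 51454250 to 51567726) encodes a coactivator of gluconeogenic genes. Its values were 24.6, 23.5, 22.0 and 24.9 CPM in NS replicates 1 to 4 and 29.1, 23.1, 18.2 and 26.2 CPM in 4-HPAA replicates 1 to 4. The extremes were both 4-HPAA livers, and Ppargc1a had a log2 fold change of 0.03 (standard error 0.13). Irs2 (ENSMUSG00000038894, chromosome 8, 10984681 to 11008458), an adaptor that FoxO factors raise in fasting, was at 16.1, 17.9, 17.9 and 16.2 CPM in NS replicates 1 to 4 and 15.0, 19.1, 25.6 and 18.3 CPM in 4-HPAA replicates 1 to 4. NS livers lay within 2 CPM of each other, 4-HPAA replicate 3 was highest and 4-HPAA replicate 1 lowest. Irs2 had a log2 fold change of 0.20 (standard error 0.14) and an unadjusted p of 0.203 in edgeR. Igfbp1 (ENSMUSG00000020429, chromosome 11, 7197782 to 7202546) encodes a secreted binding protein of the insulin-like growth factors and is a sensitive liver target of insulin. It was at 378, 124, 95.6 and 170 CPM in NS replicates 1 to 4 and 141, 88.5, 147 and 282 CPM in 4-HPAA replicates 1 to 4. NS replicate 1 and 4-HPAA replicate 4 stood above the rest, 4-HPAA replicate 2 and NS replicate 3 were lowest, and the range was 4.27-fold. The log2 fold change of -0.22 (standard error 0.45) was smaller than its standard error.

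Since these genes share regulators, the starts of 4 of them are shown with the core of the insulin response sequence, CAAAACA or TGTTTTG on the opposite strand, in capitals. Sequences are those of RefSeq on GRCm38.p6, from 250 bases before the start and cut where a GENCODE transcript of the gene begins. Igfbp1 lies at chr11:7197537-7197781 (+ strand), G6pc at chr11:101367466-101367560 (+ strand), Irs2 at chr8:11008930-11009179 (- strand) and Pck1 at chr2:173152823-173153047 (+ strand).
Igfbp1: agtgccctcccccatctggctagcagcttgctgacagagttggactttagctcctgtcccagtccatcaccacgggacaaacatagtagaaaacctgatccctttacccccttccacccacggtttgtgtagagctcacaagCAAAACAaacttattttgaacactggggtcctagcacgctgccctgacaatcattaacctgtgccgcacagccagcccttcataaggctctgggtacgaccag
G6pc: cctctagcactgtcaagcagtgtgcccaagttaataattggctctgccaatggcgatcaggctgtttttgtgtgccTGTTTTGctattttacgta
Irs2: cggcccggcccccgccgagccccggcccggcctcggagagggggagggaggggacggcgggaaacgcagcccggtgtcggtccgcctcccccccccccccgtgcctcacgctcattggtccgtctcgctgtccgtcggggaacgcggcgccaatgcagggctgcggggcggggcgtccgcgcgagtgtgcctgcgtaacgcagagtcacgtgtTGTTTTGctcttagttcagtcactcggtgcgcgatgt
Pck1: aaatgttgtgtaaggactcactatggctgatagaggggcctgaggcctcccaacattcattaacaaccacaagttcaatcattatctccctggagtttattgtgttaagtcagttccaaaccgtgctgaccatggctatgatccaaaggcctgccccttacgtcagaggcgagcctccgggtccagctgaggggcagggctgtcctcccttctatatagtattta

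Igfbp1, G6pc and Irs2 hold the core once each and the Pck1 stretch does not. Of the 3 genes with the core, Igfbp1 was highest in NS replicate 1, G6pc in 4-HPAA replicate 4 and Irs2 in 4-HPAA replicate 3. Of the 41 genes, 38 had a promoter in the table, with 53 starts, and 6 genes held the core within 250 bases (G6pc, Gckr, Igfbp1, Irs1, Irs2 and Pck2). That was 11.3% of their promoters, beside 5.56% of all 32851 promoters, both strands searched. An E-box, CACGTG, was in 13.2% of them and 6.02% of all, among them Khk, Irs1, Irs2, Pcx and Ppp1r3c. The full cyclic AMP element TGACGTCA was in 1 member promoter, that of Ldha, and the FoxO site GTAAACA in 0 of 53, beside 1.55% and 3.17% of all promoters. Such matches describe letters and not binding, and the difference in shares was not tested.

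Pklr (ENSMUSG00000041237, chromosome 3, 89136142 to 89146784), which makes pyruvate and is raised by feeding, completes the fed-type genes with Khk and Ppp1r3b. Its values were 361, 356, 229 and 195 CPM in NS replicates 1 to 4 and 261, 329, 235 and 342 CPM in 4-HPAA replicates 1 to 4. In NS, replicates 1 and 2 lay well above replicates 3 and 4, and the 4-HPAA livers covered the same span, with a log2 fold change of 0.03 (standard error 0.21). Pklr is also the pyruvate kinase gene of red blood cells. Summed red cell markers (8 genes, none at 0 in every liver) were 2782 CPM in NS replicate 2, 914 CPM in 4-HPAA replicate 4 and 333 to 547 CPM in the others. The part of red cells in the level of Pklr was not tested.

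**Figure D3:**
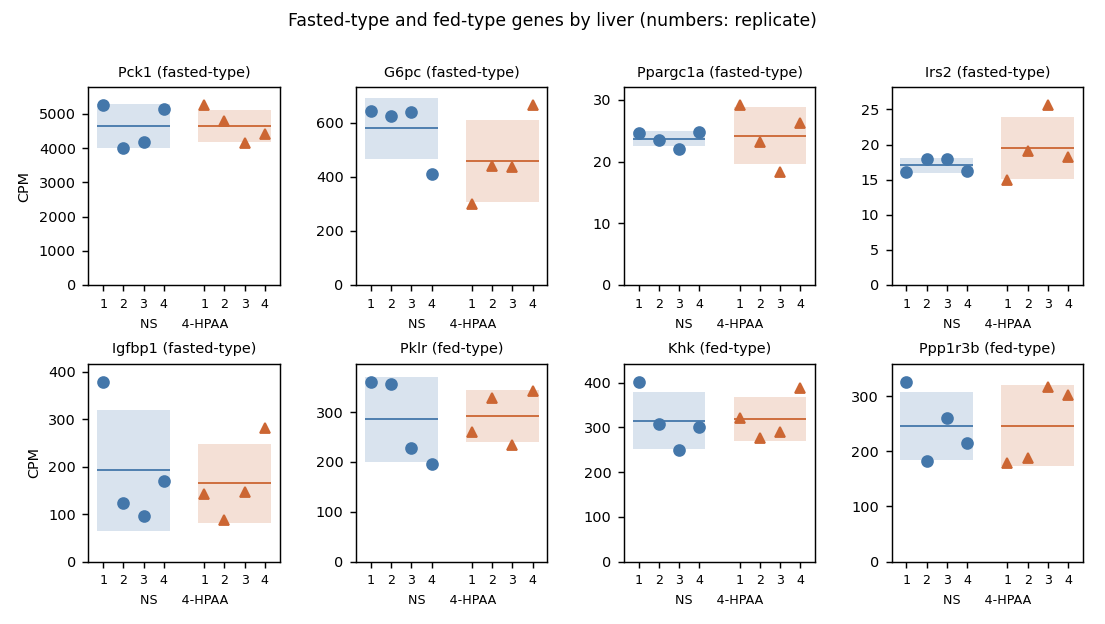
Panels give CPM (vertical axes from 0) of the 5 fasted-type genes and the 3 fed-type genes in each liver, with replicates numbered along the horizontal axis (circles, NS; triangles, 4-HPAA). Lines are group means and bands are 1 SD either side (n = 4), and in all 8 panels the bands of the groups overlap.

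Fasted-type and fed-type genes were then set against each other in each liver. A fasting liver would be read from high fasted-type and low fed-type genes. For each list the log2 CPM of every gene was centered on its mean of 8 livers and averaged. The 5 fasted-type genes were at 0.34, -0.06, -0.13 and -0.02 in NS replicates 1 to 4 and at -0.14, -0.19, -0.07 and 0.27 in 4-HPAA replicates 1 to 4. The 3 fed-type genes were at 0.39, -0.03, -0.17 and -0.25 with NS and -0.17, -0.10, 0.01 and 0.31 with 4-HPAA. The lists did not move against each other: NS replicate 1 and 4-HPAA replicate 4 were the 2 highest livers in both. That held with RLE scaling, with total counts only and with any 1 gene left out of either list. Without Igfbp1, however, their order among the fasted-type genes changed places and both fell. The fasted-type mean was then 0.12 in 4-HPAA replicate 4 and 0.11 in NS replicate 1, beside -0.14 to 0.02 in the other livers. Much of the height of these 2 livers in the fasted-type list thus came from Igfbp1.

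The difference between the lists, fasted minus fed, was 0.05 ± 0.12 with NS and -0.05 ± 0.05 with 4-HPAA (SD, n = 4), and the groups overlapped. From the fitted fold changes, the median of the fasted-type genes was 0.00071 and that of the fed-type genes 0.02, a difference of -0.02. The widest difference of any liver was 0.22, in NS replicate 4, the liver with the lowest Pklr. Without 4-HPAA replicate 1 the difference between the medians was -0.16, and without NS replicate 4 it was 0.10.

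**Figure D4:**
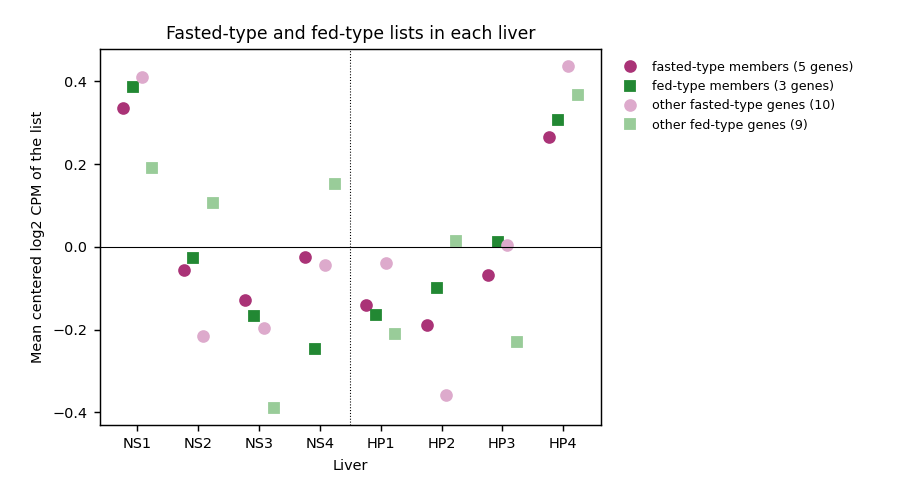
For each liver (NS1 to NS4, normal saline; HP1 to HP4, 4-HPAA) symbols give the mean centered log2 CPM of 4 gene lists (circles, fasted-type; squares, fed-type; dark, among the 41; pale, others). All 4 lists lie above 0 in NS1 and HP4, and the fasted-type and fed-type symbols of a liver are not mirror images.

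Fasted-type and fed-type genes outside the 41 were highest in the same livers. Of 10 other fasted-type genes, 5 had a log2 fold change above 0, 5 below 0, and none was called. Their mean centered level was highest in 4-HPAA replicate 4 (0.44) and NS replicate 1 (0.41) and between -0.36 and 0.0036 in the others. In this list the amino acid enzyme genes Tat and Sds and the carnitine transferase gene Cpt1a had log2 fold changes from -0.03 to 0.05. The hormone gene Fgf21, at 0.52 (standard error 0.77), was at 5.95 CPM in 4-HPAA replicate 4 and 2.92 CPM in NS replicate 1 and between 0.40 and 1.68 CPM elsewhere. Pdk4, which shuts pyruvate dehydrogenase in fasting, was at 9.91 CPM in NS replicate 1 and 7.55 CPM in 4-HPAA replicate 4 and between 2.26 and 4.95 CPM elsewhere. Lpin1, Angptl4, Klf15 and Trib1 had log2 fold changes from -0.13 to 0.26.

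Of 9 other fed-type genes tested, 6 were higher, 3 lower and none called. Their mean was also highest in 4-HPAA replicate 4 (0.37) and NS replicate 1 (0.19), and lowest in NS replicate 3 (-0.39). NS replicate 1 stood little above NS replicate 4 (0.15) and NS replicate 2 (0.11). The lipogenic genes Srebf1, Fasn, Acly, Acaca, Scd1, Elovl6, Me1 and Thrsp had log2 fold changes between -0.17 and 0.25.

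**Figure D5:**
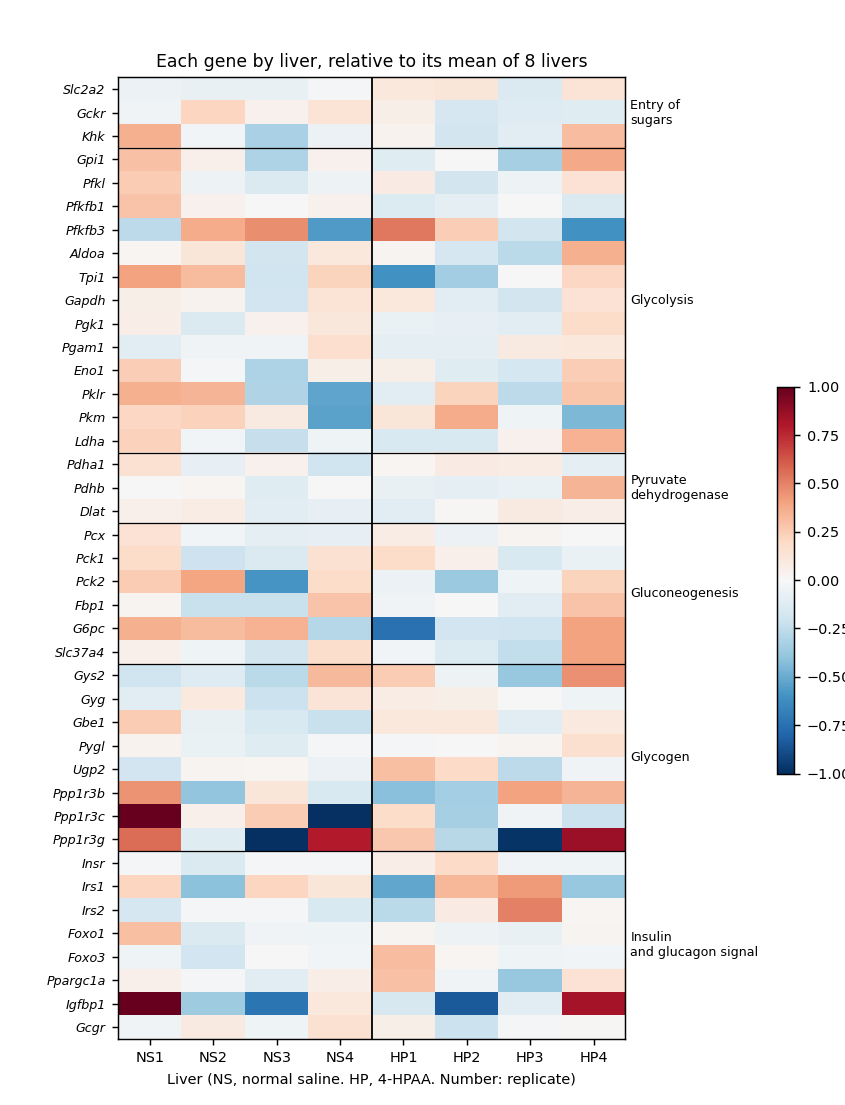
Rows are the 41 genes by role and columns the 8 livers (NS1 to NS4, normal saline; HP1 to HP4, 4-HPAA), and color is log2 CPM minus the gene's mean of 8 livers, limited to 1 either way. Columns NS1 and HP4 hold the most red, with 14 and 12 of the 41 genes at their highest, while the strongest rows are Igfbp1, Ppp1r3c and Ppp1r3g.

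The 41 genes varied among livers of the same group. NS replicate 1 was the highest liver for 14 of them (34.1%, beside 12.0% of all genes tested) and 4-HPAA replicate 4 for 12 (29.3%, beside 18.7%). NS replicate 3 was the lowest liver for 10 (24.4%, beside 11.4%) and the highest for 0. Genes of 1 liver are not independent, and these shares are a description without a test. Summed hepatocyte markers were 131319 CPM in NS replicate 1, 142071 CPM in NS replicate 4 and 142858 CPM in 4-HPAA replicate 4, beside 115409 to 127254 CPM in the others. Summed cholangiocyte markers (5 genes) were highest in NS replicate 1 at 45.5 CPM and 4-HPAA replicate 4 at 37.9 CPM, beside 23.4 to 33.1 CPM in the others. The part of either cell type in the pattern was not tested. The standard deviation of log2 CPM over the 8 livers had a median of 0.20 in the 41 genes and 0.18 in all genes tested. Ppp1r3g (0.75), Igfbp1 (0.72) and Ppp1r3c (0.70) each varied more than 98.2% of the genes tested, whereas only 8.79% or fewer varied less than Pcx, Pygl and Dlat (0.08 each).

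Clock genes also differed between livers, within each group. Arntl, a core activator of the clock, was at 3.27, 0.62, 2.76 and 1.24 CPM with NS and 0.66, 1.40, 3.46 and 2.83 CPM with 4-HPAA. Dbp, which runs opposite to it in time, was at 48.3, 89.0, 58.1 and 86.4 CPM with NS and 105, 86.5, 46.7 and 68.7 CPM with 4-HPAA. Of 15 clock genes tested none was called, with log2 fold changes from -0.20 to 0.27. The 4 livers with the most Arntl, NS replicates 1 and 3 and 4-HPAA replicates 3 and 4, were also the 4 with the most Ppp1r3b, and the 4 with the least Gyg. Those are 1 of 41 genes in each direction, beside 1.93% and 1.79% of all genes tested, and a single gene near the background share is not a result about the 41. These 4 livers held both the highest and the lowest means of the 41 genes in centered log2 CPM. The mean was 0.17 in NS replicate 1 and 0.13 in 4-HPAA replicate 4. It was -0.12 in NS replicate 3 and -0.09 in 4-HPAA replicate 3, beside -0.06 to -0.0056 in the other livers. The part of the clock in these levels was not tested.

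The rest of the pathway was read from 102 further genes, of which 91 were tested. Of these 52 were higher and 39 lower with 4-HPAA, 0 were called by edgeR, 0 by DESeq2 and 0 by limma-voom, 4 had an unadjusted p under 0.05, and 2 had groups that did not overlap. Those are 4.40% and 2.20%, beside 1.75% and 1.20% of all genes tested. Pdp2, the phosphatase that switches pyruvate dehydrogenase on, was at 46.8 ± 3.00 CPM with NS and 55.2 ± 2.77 CPM with 4-HPAA (SD, n = 4). All 4 livers with 4-HPAA lay above all with NS, the log2 fold change was 0.24 (standard error 0.07), and the unadjusted p of 0.00935 in edgeR became an adjusted p of 1.00. Foxa2, a factor that opens liver promoters, stood at 0.63 (standard error 0.27). Nr4a1, an early response gene, stood at -2.25 (standard error 0.98), a value set by NS replicate 1 at 22.1 CPM where every other liver was at or under 3.09 CPM. Grb14, which inhibits the insulin receptor, stood at 0.13 (standard error 0.07).

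By role, 18 further glycolytic genes were tested and had a median log2 fold change of -0.03. Medians were 0.04 for 9 genes of pyruvate entry, -0.03 for 11 of gluconeogenesis and its amino acid supply, 0.03 for 16 of glycogen and 0.03 for 37 of insulin and glucagon signaling.

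At the level of single transcripts, 247 transcripts of the 41 genes were in the file and 109 of them passed the filter on low counts. None had an adjusted p under 0.05 in edgeR, and 3 had an unadjusted p under 0.05 (2.75%, beside 3.83% of all transcripts tested). They were Tpi1-205 described above, Gapdh-202 with 1.30% of the counts of Gapdh, and Gckr-204 with 3.70% of those of Gckr. G6pc, Igfbp1 and Irs2 were each read from 1 transcript. Khk was split into Khk-204 with 64.7% and Khk-201 with 27.5% of its counts, and their log2 fold changes were 0.06 (standard error 0.16) and 0.03 (standard error 0.15).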

How the data were processed

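Liver RNA of 8 mice was sequenced after poly(A) selection with a strand-specific kit. Per the study's methods, the authors checked reads with FastQC 0.11.9 and joined the reads of the flow cells. They ran kallisto, a pseudo-alignment program that divides reads among the transcripts they could come from. The deposited values are an estimated count per transcript and mouse. The study names NCBI annotation of GRCm38.p6, while the table lists Ensembl transcripts. DESeq2 and edgeR are named in the submitters' processing notes.

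From these, transcripts were summed per gene by GENCODE M21 (116728 of 119414 matched, 35975 genes) and rounded. A gene entered the test if no library had fewer than 10 counts. edgeR 4.0.16 in R 4.3.3 (quasi-likelihood, TMM scaling) gave the p-values, adjusted by Benjamini-Hochberg over all 12883 genes, with 0.05 as the limit. The standard error was taken as the fitted log2 fold change over the root of its F statistic. CPM are on the TMM scaling and TPM use annotated lengths. Log2 CPM used a prior count of 2. The steps were tested on simulated data. DESeq2 1.42.0, limma-voom (limma 3.58.1), other scalings and filters, libraries left out, a replicate block and single transcripts were the alternatives, and leaving out both libraries rich in globin was added after seeing the data.

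The 41 genes and all lists were chosen with earlier results of these data known. Every one of the 41 is named. Values in all livers are given for the 5 fasted-type and 3 fed-type genes, the 5 with the smallest p and those without overlap, and of further pathway genes the 5 with the smallest p are named, except that some genes are not reported here. Single transcripts were named after their values were seen. The labels do not say whether the mice were littermates. The p-values set the difference between the groups against the spread between mice of the same group, for these 8 mice. Depth was about equal, so precision rests on the 4 mice of a group.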

Additional observations from a re-analysis of the deposited data

Results flagged for a closer look

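In each of 92 sets of 4 livers (the 41 genes and 5 list means in both groups), the liver farthest from the others was compared with the spread of its group. In 9 sets its gap to the nearest liver, as a share of the range, was over Dixon's limit for 4 samples, where chance flags about 1 in 20 sets, or 4.60 of 92. The sets share livers and genes and are not independent.

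With normal saline, NS replicate 4 was low for G6pc, at 411 CPM beside 626 to 643 CPM (gap 0.926 of the range). NS replicate 1 was high for Pfkfb1, at 61.1 CPM beside 50.2 to 51.7 CPM (0.867). NS replicate 2 was low for Insr, at 172 CPM beside 187 to 188 CPM (0.951). NS replicate 3 was low for the other fed-type genes, at -0.39 beside 0.11 to 0.19 in mean centered log2 CPM (0.852).

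With 4-HPAA, replicate 4 was high for Pdhb, at 134 CPM beside 99.9 to 101 CPM (0.96), and for Pgk1, at 293 CPM beside 240.1 to 247 CPM (0.875). 4-HPAA replicate 3 was low for Slc2a2, at 361 CPM beside 429 to 439 CPM (0.871), and for Gbe1, at 121 CPM beside 140.0 to 141 CPM (0.943). 4-HPAA replicate 1 was high for Foxo3, at 82.6 CPM beside 64.8 to 67.7 CPM (0.841).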

How the results depend on the processing

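Under the 17 alternatives, 0 of the 41 genes and 0 of the further pathway genes were called, and the lowest adjusted p of any of the 41 was 0.999. Over all genes, 15 of the 17 called 0, and DESeq2 called 2. Leaving out single libraries gave 0 to 1 calls over all genes (1 without 4-HPAA replicate 1), 1 to 3 of the 41 without overlap (2 without NS replicate 3 and without 4-HPAA replicate 3, and 3 without 4-HPAA replicate 1) and a difference between fasted-type and fed-type medians of -0.16 to 0.10. Of the 41, 0 were without overlap with total counts only and with single transcripts, and 2 without both globin-rich libraries (Pfkfb1 and Pgk1). Smaller groups separate more often by chance, and no share over all genes was taken for the reduced sets of livers. Counts of 2 and 3 are therefore not a result about the 41. The cause was not tested. The median over the 41 moved by less than the spread between livers in all 17.

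The direction held in all alternatives for 15 of the 41, among them Pfkfb1, Gckr, Tpi1, G6pc, Irs2, Foxo3, Slc2a2 and Insr. With limma-voom, the log2 fold change changed sign for Slc37a4 (-0.00028) and Ppp1r3b (-0.0094). With total counts only, the log2 fold change changed sign for Pgam1 (-0.0040), Eno1 (-0.0092), Pkm (-0.0057), Pck1 (-0.0079) and Ppp1r3b (-0.0037). Without both globin-rich libraries, the log2 fold change changed sign for Khk (-0.11), Pfkfb3 (0.27), Pgam1 (-0.057), Eno1 (-0.10), Ldha (-0.090), Pdhb (-0.045), Pck1 (-0.048), Fbp1 (-0.10), Slc37a4 (-0.16), Gys2 (-0.022), Ppp1r3b (-0.23) and Ppargc1a (-0.029). With the replicate block, the log2 fold change changed sign for Slc37a4 (-0.0010) and Ppp1r3b (-0.0053). With single transcripts, the sign differed from that of the gene in the leading transcript of Pfkfb3 and of Ppp1r3b. These were Pfkfb3-206 (48.5% of counts, 0.36) and Ppp1r3b-201 (40.7%, -0.0074). The sign of the gene was kept in Pfkfb3-214 (-0.30), Pfkfb3-220 (-0.56), Ppp1r3b-202 (0.036) and Ppp1r3b-204 (0.038), but not in Ppp1r3b-203 (-0.17). With each library left out in turn, it changed sign for 25, with ranges of Khk -0.096 to 0.16, Gpi1 -0.19 to 0.067, Pfkl -0.061 to 0.085, Pfkfb3 -0.21 to 0.15, Aldoa -0.16 to 0.070, Gapdh -0.082 to 0.037, Pgam1 -0.041 to 0.060, Eno1 -0.091 to 0.090, Pklr -0.11 to 0.16, Pkm -0.15 to 0.13, Ldha -0.081 to 0.13, Pdha1 -0.015 to 0.10, Pdhb -0.058 to 0.11, Pcx -0.0010 to 0.079, Pck1 -0.066 to 0.065, Fbp1 -0.038 to 0.18, Slc37a4 -0.15 to 0.093, Gyg -0.021 to 0.092, Ppp1r3b -0.14 to 0.17, Ppp1r3c -0.73 to 0.088, Ppp1r3g -0.45 to 0.19, Irs1 -0.19 to 0.11, Foxo1 -0.10 to 0.057, Ppargc1a -0.071 to 0.14 and Igfbp1 -0.62 to 0.34.

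The labels number the mice 1 to 4 in each group but give no sign that a number marks a shared cage or day. Correlations of same-numbered deviations from the group means were 0.0398, 0.168, 0.268 and 0.481 for replicates 1 to 4. Livers with different numbers were not correlated for comparison, so these values cannot decide whether the numbers pair the mice. The main fit treated the mice as unpaired. With the replicate block 0 genes were called, and the median over the 41 was 0.0016.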

Other observations

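Markers of the other liver cells differed between livers of both groups. The summed level of 7 endothelial markers was 136 CPM in NS replicate 4 and 130 CPM in 4-HPAA replicate 4, beside 170 to 215 CPM in the other 6 livers. That of 6 stellate cell markers was 94.8 and 108 CPM in the same livers, beside 127 to 191 CPM. Skeletal muscle markers (5 genes) were at 6.13 CPM in NS replicate 3 and at 0.421 CPM or less in the others. Markers of the acute phase (7 genes) ran from 3269 to 4008 CPM with NS and from 2728 to 3714 CPM with 4-HPAA.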
